A study of Mus musculus with 7 samples.

Results

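Expression of 10 genes of the antioxidant defence was examined in aged mouse skin after topical ABT-263. The genes were chosen by name as targets of the transcription factor NRF2 or as antioxidant enzymes. The rule uses no measured value, but the list was drawn up with earlier results of these data known. They are Slc7a11, Gclc, Gclm and Gsr of glutathione metabolism, Txnrd1 and Srxn1 of the thioredoxin system, Nqo1 and Hmox1, and the superoxide dismutases Sod2 and Sod3. All 10 were among the 17959 genes tested, out of 55450 genes in the count table. Dorsal skin came from wild-type male C57BL/6 mice aged 24 months. In every mouse the dorsal hair was clipped and removed with a depilatory lotion and the skin was cleansed with ethanol. The skin then received either the DMSO vehicle (4 mice, numbered 480 to 483) or 5 µM ABT-263 (3 mice, numbered 476 to 478) for 5 days under a semi-occlusive dressing. ABT-263, also called navitoclax, blocks survival proteins of the BCL-2 family and is used as a senolytic, an agent that kills senescent cells. One polyadenylated RNA library was made per mouse from whole skin homogenate, and untreated skin is not analysed here.

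NRF2, encoded by Nfe2l2, is the main transcription factor of the response to oxidants and electrophiles. At rest, KEAP1 presents NRF2 to the CUL3-RBX1 ubiquitin ligase and NRF2 is degraded. When cysteines of KEAP1 are modified, NRF2 accumulates, pairs with small MAF proteins and binds antioxidant response elements, from which BACH1 is displaced. In skin, this programme is known for the protection of keratinocytes and fibroblasts against ultraviolet light and chemical stress.

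Expression is given as CPM, the library-size-scaled count after TMM normalization, and differences as log2 fold changes of ABT-263 against DMSO with their standard error (SE). Each adjusted p-value comes from the quasi-likelihood test of edgeR, two-sided, with Benjamini-Hochberg adjustment over all genes tested and a threshold of 0.05. Library totals were 20344364 to 26824123 counts in the DMSO mice and 27325963 to 43562330 in the ABT-263 mice, so every ABT-263 library was the larger. An exact permutation test of 4 mice against 3 cannot give a p-value below 0.0286. The labels name no batch.

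The libraries held the markers of skin, and several marker lists differed between treatments. The summed level of 5 basal keratinocyte markers was 17967 to 30991 CPM with DMSO and 13636 to 35651 CPM with ABT-263 (1 higher, 1 lower), and that of 5 suprabasal markers was 6588 to 24837 CPM and 5800 to 18688 CPM (none called). Macrophage markers summed to 182 to 468 CPM with DMSO and 675 to 2313 CPM with ABT-263, with 6 of 6 higher and the highest sum in mouse 476. For neutrophil markers the sums were 99.8 to 1820 CPM and 5097 to 8318 CPM (3 of 5 tested higher, with Ly6g at 0 in at least 1 library). Endothelial markers summed to 124 to 275 CPM and 415 to 540 CPM (5 of 5 higher), and fibroblast markers to 3269 to 4592 CPM and 4707 to 7635 CPM (3 of 5 higher). Skeletal muscle markers made up 24545 to 52696 CPM and 17921 to 26917 CPM (1 of 6 lower), and RNAs retained in the nucleus 3093 to 4487 CPM and 1340 to 1940 CPM (3 of 4 lower). Erythroid markers stood at 1747 CPM in mouse 476 against 135 to 276 CPM in the other mice. Hair follicle markers stood at 2730 CPM in DMSO mouse 481 and 547 CPM in ABT-263 mouse 478, against 8.49 to 31.3 CPM in the other mice, with Krt25 at 0 in at least 1 library. Sebaceous markers (317 to 617 CPM with DMSO, 232 to 349 CPM with ABT-263) had 1 of 5 lower. Adipocyte markers (574 to 1499 CPM and 681 to 1877 CPM), vascular smooth muscle markers (223 to 324 CPM and 246 to 397 CPM) and T cell markers (11.0 to 19.97 CPM and 9.43 to 34.7 CPM) overlapped. In bulk skin, fewer cells of a type and less RNA per cell cannot be told apart, and the part of these markers in the results that follow was not tested.

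After ABT-263, 4 of the 10 genes were higher and 0 were lower, by edgeR's quasi-likelihood test. Among all genes tested, 12.4% were higher and 11.7% lower (24.2% in either direction). The 4 genes were Slc7a11 (5.14-fold), Sod3 (3.90-fold), Gclm (2.00-fold) and Nqo1 (1.6-fold). In these 4 genes every ABT-263 mouse lay above every DMSO mouse, an arrangement found in 18.7% of all genes tested (37.1% with either group above the other, 18.4% with the ABT-263 mice below). The other 6 genes did not pass the threshold, although their log2 fold changes were positive too. Over the 10 genes the median was 0.74 on the log2 scale, against 0.0022 over all genes tested (quartiles -0.43 and 0.48). Of all genes tested, 50.1% had a positive value. At an unadjusted p-value under 0.05, edgeR gave 7 genes higher and 0 lower, where 20.6% of all genes were higher and 19.5% lower. DESeq2 gave 4 higher and 0 lower at an adjusted p-value under 0.05, where 13.6% of the 21822 genes with such a value were higher and 12.3% lower. The number of higher genes depended on the mice: it was 1 without DMSO mouse 482 and 2 without DMSO mouse 483, ABT-263 mouse 476 or ABT-263 mouse 478. Only Gclm passed the threshold with each of the 7 mice left out. In exact permutation tests of log2 CPM, Gclm, Nqo1 and Sod3 had a p of 0.0286, the smallest that these mice can give. These p-values were not adjusted over the 10 genes.

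**Figure D1:**
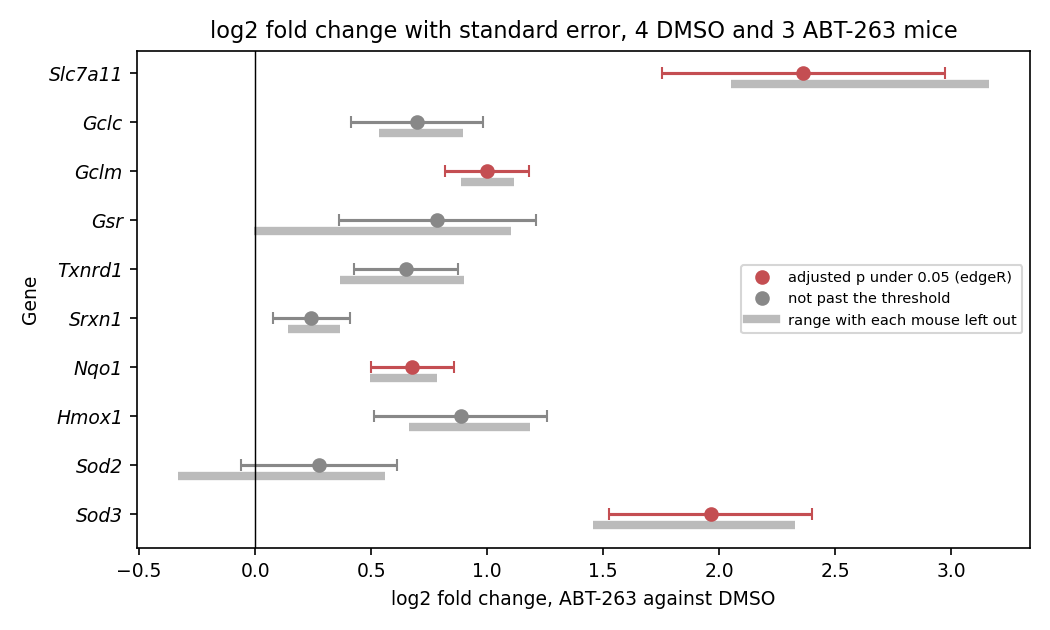
The horizontal axis gives the log2 fold change of each of the 10 genes after ABT-263 (3 mice) against DMSO (4 mice), the thin bars give the standard error from edgeR, and the grey bars give the range over the fits that left out 1 mouse. All 10 points lie above 0, and the 4 that passed the threshold are Slc7a11, Sod3, Gclm and Nqo1.

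Glutathione is made from glutamate, cysteine and glycine. Slc7a11 encodes the light chain of the cystine/glutamate exchanger xCT, which brings in the cystine from which cysteine is taken. The gene lies on chromosome 3 from 49892526 to 50443614 on the reverse strand (GRCm38, the assembly also called mm10), and is protein-coding. In DMSO mice 480, 481, 482 and 483 its level was 14.7, 1.85, 5.59 and 3.74 CPM, and in ABT-263 mice 476, 477 and 478 it was 39.8, 34.6 and 25.6 CPM. The lowest ABT-263 mouse therefore lay above the highest DMSO mouse, and DMSO mouse 480 stood above the other 3 DMSO mice. The mean rose from 6.47 ± 5.69 (SD, n = 4) to 33.3 ± 7.22 CPM (SD, n = 3), which is a log2 fold change of 2.36 (SE 0.61, edgeR adjusted p = 0.0312). On log2 CPM the exact permutation p was 0.0571. The edgeR call was lost when any one of DMSO mice 482 and 483 or ABT-263 mice 476, 477 and 478 was left out, with adjusted p-values of 0.0775, 0.0746, 0.111, 0.0715 and 0.0600. It was also lost with all genes that had any count in the test (adjusted p = 0.107). A stretch of 585 bases of its annotated transcript is 92.5% identical to the alpha-tubulin gene Tuba1b, which had 47997 counts over all libraries against 4280 for Slc7a11. Neutrophil markers summed to 1820, 99.8, 1380 and 550 CPM in DMSO mice 480, 481, 482 and 483. In ABT-263 mice 476, 477 and 478 these sums were 8318, 5097 and 5563 CPM. Macrophage, endothelial and fibroblast markers were also higher, as given above, and the part of these cells in the level of Slc7a11 was not tested.

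Glutamate-cysteine ligase carries out the first and rate-limiting step of glutathione synthesis. Its catalytic subunit is encoded by Gclc (chromosome 9 from 77754535 to 77794485) and its modifier subunit, which raises the activity of the enzyme, by Gclm (chromosome 3 from 122245557 to 122270732). Gclm was at 9.37, 15.1, 12.5 and 11.7 CPM in DMSO mice 480 to 483 and at 26.2, 21.5 and 25.2 CPM in ABT-263 mice 476 to 478. The groups were well apart and the spread within each was small. The mean rose from 12.2 ± 2.37 (SD, n = 4) to 24.3 ± 2.48 CPM (SD, n = 3), with a log2 fold change of 1.00 (SE 0.18, edgeR adjusted p = 0.0108). This call was kept in each of 16 alternative settings, with log2 fold changes of 0.89 to 1.12. Of its exon bases, 3.88% overlap another annotated gene on the same strand.

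The catalytic subunit followed less clearly. Gclc was at 4.13, 8.89, 6.98 and 5.55 CPM with DMSO and at 7.79, 11.4 and 11.9 CPM with ABT-263, so that ABT-263 mouse 476 lay below DMSO mouse 481. The means were 6.39 ± 2.03 (SD, n = 4) and 10.3 ± 2.22 CPM (SD, n = 3). The log2 fold change of 0.70 (SE 0.28) did not pass the threshold (edgeR adjusted p = 0.106). Within each library, the log2 ratio of Gclm to Gclc counts was 0.96 ± 0.20 (SD, n = 4) with DMSO and 1.25 ± 0.44 (SD, n = 3) with ABT-263. The 2 subunits could not be told apart in their change (difference 0.29, exact permutation p = 0.286, and 0.04 without ABT-263 mouse 476).

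Gsr (chromosome 8 from 33652523 to 33698163) encodes glutathione reductase, which returns oxidized glutathione to its reduced form with NADPH. Its level was 23.8, 36.0, 29.6 and 37.4 CPM in the DMSO mice and 101, 31.5 and 31.3 CPM in ABT-263 mice 476, 477 and 478. Mouse 476 was thus the only mouse apart from the rest, and the other 2 ABT-263 mice lay within the DMSO range. The log2 fold change of 0.79 (SE 0.43) did not pass (edgeR adjusted p = 0.207), and without mouse 476 it was -0.0047.

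**Figure D2:**
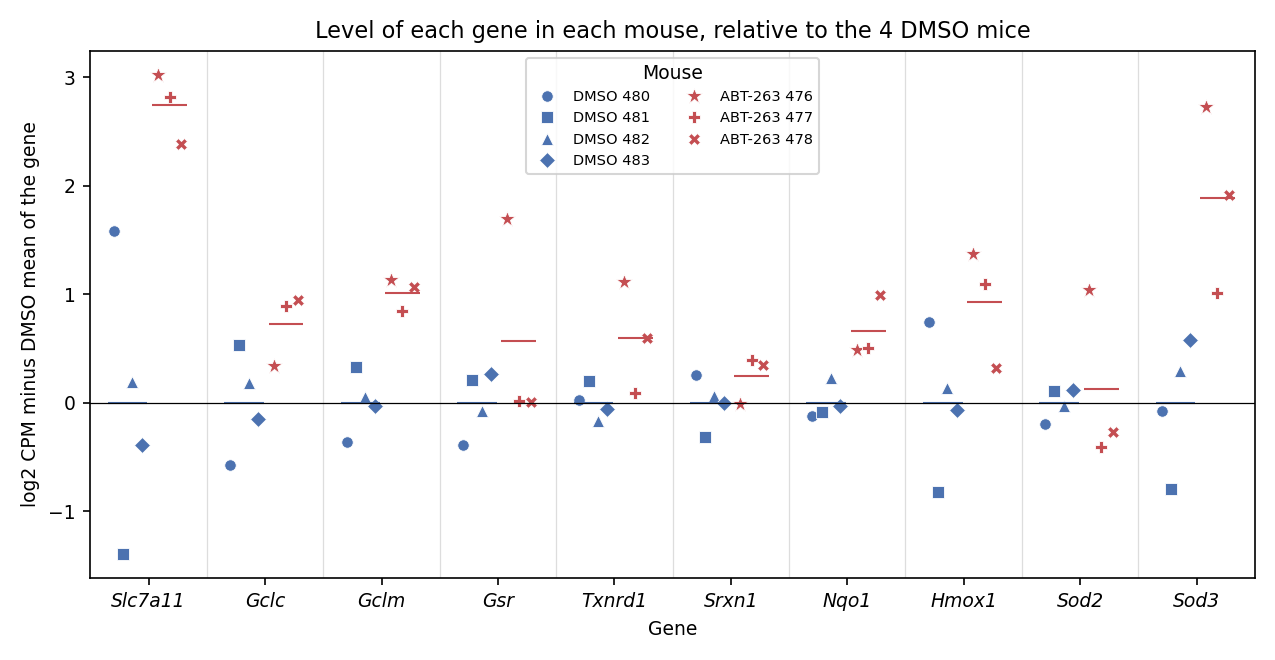
Each point is 1 mouse, and the vertical axis gives log2 CPM minus the mean of the 4 DMSO mice for that gene, with lines at the group means. In Slc7a11, Gclm, Nqo1 and Sod3 the 3 ABT-263 mice lie above the 4 DMSO mice, and in Gsr and Sod2 ABT-263 mouse 476 alone stands high.

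The thioredoxin system is the other main thiol pathway of the cell. Txnrd1 (chromosome 10 from 82833951 to 82897712) encodes the cytosolic thioredoxin reductase, a selenoprotein that keeps thioredoxin reduced with NADPH. It was at 51.1, 57.9, 44.7 and 48.4 CPM with DMSO and at 108.5, 53.5 and 75.9 CPM with ABT-263. Mouse 477 lay inside the DMSO range and the other 2 ABT-263 mice above it. The log2 fold change was 0.65 (SE 0.22, edgeR adjusted p = 0.0670). It passed the threshold without mouse 477 (0.90, adjusted p = 0.0211) and with all genes that had any count in the test (0.68, adjusted p = 0.0467). Without mouse 476 the log2 fold change was 0.36 (adjusted p = 0.207).

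Srxn1 (chromosome 2 from 152105516 to 152111376) encodes sulfiredoxin, which restores overoxidized peroxiredoxins. Its levels of 49.1, 33.1, 43.0 and 41.0 CPM with DMSO and 40.9, 54.1 and 52.4 CPM with ABT-263 overlapped. Its log2 fold change was the smallest of the 10 genes, at 0.24 (SE 0.17, edgeR adjusted p = 0.308), and it stayed between 0.14 and 0.36 with each mouse left out. The ratio of Txnrd1 to Gsr, the reductases of the 2 systems, differed by 0.02 on the log2 scale (exact permutation p = 0.943), and that of Srxn1 to Txnrd1 by -0.35 (exact permutation p = 0.457). Without mouse 476 these differences were 0.33 and 0.03.

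Nqo1 and Hmox1 are the genes most often used to read out NRF2 activity. Nqo1 (chromosome 8 from 107388225 to 107403206, reverse strand) encodes the NAD(P)H quinone dehydrogenase that reduces quinones directly to hydroquinones. It was at 10.4, 10.6, 13.2 and 11.0 CPM in DMSO mice 480 to 483 and at 15.8, 15.9 and 22.4 CPM in ABT-263 mice 476 to 478. All ABT-263 mice lay above the DMSO mice, and mouse 478 was the highest. The mean rose from 11.3 ± 1.30 (SD, n = 4) to 18.03 ± 3.79 CPM (SD, n = 3), with a log2 fold change of 0.68 (SE 0.18, edgeR adjusted p = 0.0311). The call was lost without any one of DMSO mice 480, 481, 482 and 483 or ABT-263 mouse 478, with adjusted p-values of 0.0548, 0.0673, 0.0527, 0.0757 and 0.104. Leaving out each mouse gave log2 fold changes of 0.50 to 0.78.

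Hmox1 (chromosome 8 from 75093621 to 75100589) encodes heme oxygenase 1, which breaks heme into biliverdin, iron and carbon monoxide and is strongly expressed by macrophages that take up red cells. Its levels were 133, 44.7, 87.0 and 75.8 CPM with DMSO and 204, 169 and 98.7 CPM with ABT-263. DMSO mouse 480 lay above ABT-263 mouse 478, so the groups overlapped. The log2 fold change of 0.89 (SE 0.37) did not pass (edgeR adjusted p = 0.117). Without DMSO mouse 480 it was 1.18 and passed (adjusted p = 0.0453). Of the markers described above, macrophage sums were higher in all 3 ABT-263 mice, and their part in the level of Hmox1 was not tested.

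Superoxide dismutases turn superoxide into hydrogen peroxide in separate compartments, SOD1 in the cytosol, SOD2 in mitochondria and SOD3 outside the cell. Sod3 (chromosome 5 from 52363791 to 52371418) was at 40.5, 24.6, 52.2 and 63.5 CPM in DMSO mice 480 to 483 and at 282, 86.2 and 160 CPM in ABT-263 mice 476 to 478. The lowest ABT-263 mouse lay above the highest DMSO mouse, although the ABT-263 mice varied widely. The mean rose from 45.2 ± 16.7 (SD, n = 4) to 176 ± 98.7 CPM (SD, n = 3), which is a log2 fold change of 1.96 (SE 0.44, edgeR adjusted p = 0.0203). The call was lost without DMSO mouse 482 (adjusted p = 0.0505) or ABT-263 mouse 476 (log2 fold change 1.45, adjusted p = 0.0574), and with all genes that had any count in the test (adjusted p = 0.0555). Markers of fibroblasts and endothelium were also higher, as given above, and their part in the level of Sod3 was not tested.

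Sod2 (chromosome 17 from 13006846 to 13040063), which is also a known target of NF-kB in inflamed tissue, had a different pattern. It was at 144, 177, 161 and 178 CPM with DMSO and at 337, 124 and 136 CPM with ABT-263. Mouse 476 stood above every other mouse and the other 2 ABT-263 mice stood below every DMSO mouse. The log2 fold change was 0.27 (SE 0.34, edgeR adjusted p = 0.579), and without mouse 476 it was -0.33 (adjusted p = 0.199). Mouse 476 was also the mouse with the highest sums of macrophage and erythroid markers (2313 and 1747 CPM), and their part in its Sod2 and Gsr levels was not tested.

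Sod1, the cytosolic enzyme, went the other way. Its level fell from 267 ± 39.4 (SD, n = 4) to 157 ± 7.45 CPM (SD, n = 3), which is a log2 fold change of -0.76 (SE 0.15, edgeR adjusted p = 0.0139), and the call was kept with each mouse left out. Between 14.5% and 17.8% of the reads of Sod1 and its near-identical pseudogene Gm8566 together were counted to the pseudogene, and their sum had a log2 fold change of -0.71 (edgeR adjusted p = 0.0176). Within each library, the log2 ratio of Sod3 to Sod1 counts was -2.64 ± 0.47 (SD, n = 4) with DMSO and 0.00 ± 0.80 (SD, n = 3) with ABT-263, a difference of 2.64. The ratio of Sod2 to Sod1 was -0.67, -0.48, -0.76 and -0.85 in the DMSO mice and 1.06, -0.26 and -0.25 in ABT-263 mice 476, 477 and 478. Mouse 476 stood far above the other 2, and the difference of 0.87 was 0.44 without it. In mice 477 and 478 Sod2 itself (124 and 136 CPM) lay below every DMSO mouse (144 to 178 CPM). Their higher ratio came from the lower Sod1, at 149 and 162 CPM against 229 to 320 CPM with DMSO. The groups did not overlap in either ratio, with an exact permutation p of 0.0286 each, the smallest that these mice can give. After adjustment over the 6 gene pairs compared, both values were 0.0857.

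The light chain of the cystine exchanger was set against its heavy chain in the same way. Slc3a2, the heavy chain shared with other amino acid carriers, was at 111 ± 18.7 CPM (SD, n = 4) with DMSO and 135 ± 23.8 CPM (SD, n = 3) with ABT-263, and its log2 fold change of 0.29 did not pass (edgeR adjusted p = 0.257). The log2 ratio of Slc7a11 to Slc3a2 was -3.21, -5.88, -4.03 and -4.79 in the DMSO mice and -2.00, -1.97 and -2.12 in the ABT-263 mice. The DMSO mice were spread over a wide range, and the ABT-263 mice lay close together above it. The difference was 2.45, with an exact permutation p of 0.0571 (0.114 after adjustment over the 6 pairs).

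**Figure D3:**
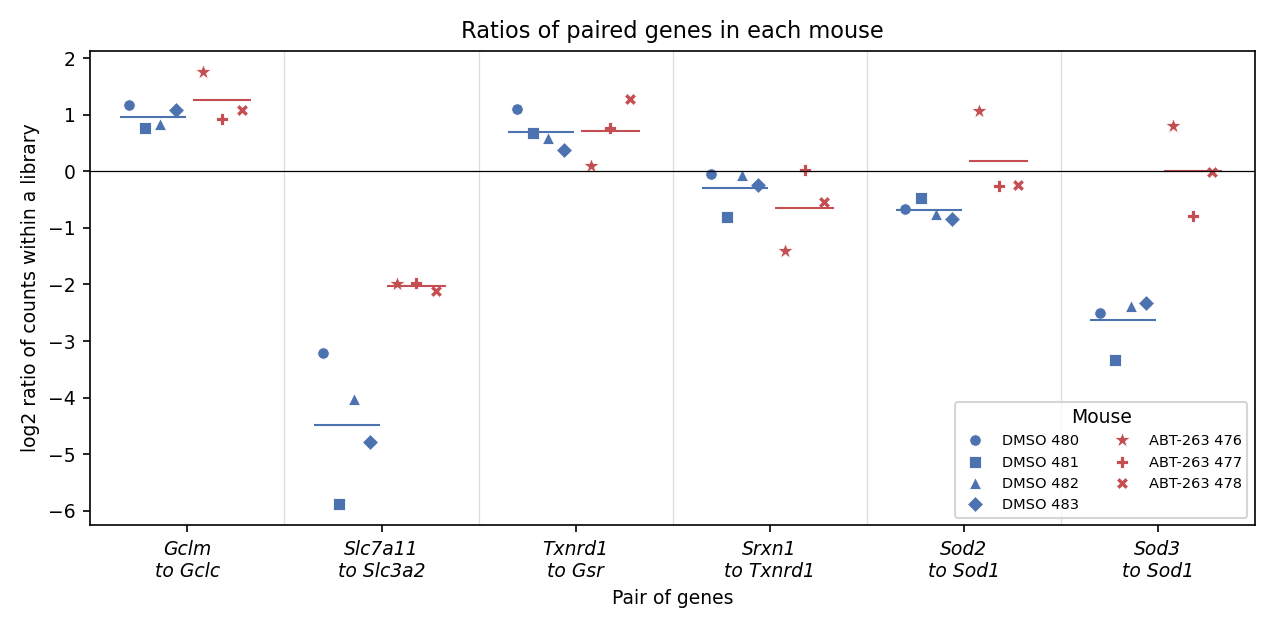
Each point is 1 mouse, and the vertical axis gives the log2 ratio of the counts of 2 genes within a library, for 6 pairs of genes, with lines at the group means. The ABT-263 mice lie above the DMSO mice in Slc7a11 to Slc3a2, Sod2 to Sod1 and Sod3 to Sod1, and the groups overlap in the other 3 pairs.

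Levels were compared between genes as RPKM, the CPM per kilobase of annotated exon. With DMSO, Hmox1 had the highest level at 48.6 ± 20.9 RPKM (SD, n = 4), followed by Sod2 at 16.5 ± 1.61, Srxn1 at 14.7 ± 2.34, Sod3 at 12.1 ± 4.46 and Gsr at 11.5 ± 2.27. The ranges of Sod2, Srxn1, Sod3 and Gsr overlapped from each to the next. Nqo1 at 7.27 ± 0.835 RPKM and Txnrd1 at 7.13 ± 0.782 RPKM overlapped too, as did Gclm at 1.94 ± 0.377 RPKM and Gclc at 1.70 ± 0.540 RPKM. Slc7a11 was the lowest at 0.465 ± 0.409 RPKM, and no DMSO mouse reached the lowest Gclc level. With ABT-263, the mean of Hmox1 was highest at 89.8 ± 30.6 RPKM (SD, n = 3). Sod3 was second at 47.1 ± 26.4 and Slc7a11 last at 2.39 ± 0.518. Ranges overlapped between Hmox1 (56.4 to 116), Sod3 (23.05 to 75.4) and Sod2 (12.4 to 33.7 RPKM). They also overlapped between Gclc (2.07 to 3.15) and Slc7a11 (1.84 to 2.86 RPKM). Slc7a11 has the longest exon length of the 10 genes, 13922 bases. In CPM its mean with ABT-263, 33.3, was above only Gclm (24.3), Nqo1 (18.03) and Gclc (10.3). With DMSO it was 6.47 CPM, against 6.39 CPM for Gclc.

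The sequences before the start sites are given for the 3 NRF2 targets that rose, since these are where antioxidant response elements are sought. RefSeq promoters (GRCm38.p6, 250 bases before to 50 after the start) were matched by symbol for 6 of the 10 genes, in 8 promoters, and Gclc, Gsr, Hmox1 and Sod3 were not among them. The core TGACNNNGC of the antioxidant response element was searched on both strands, and 13.99% of 27025 genes held it. Among the 6 genes, Gclm, Txnrd1 and Srxn1 held it, and Nqo1, Slc7a11 and Sod2 did not within this window. In Srxn1 the core lies after the start, on the opposite strand, with its first base at position 28. The AP-1 element TGACTCA, read on both strands, was held by 5.95% of all genes and by Srxn1 alone among the 6, with first bases at positions -102 and -45 from the start. The 250 bases before the start of Gclm (chr3:122245307-122245556, forward strand), Nqo1 (chr8:107403206-107403455, reverse strand) and Slc7a11 (chr3:50443614-50443863, reverse strand) are printed with the core in capitals. By the gene positions given above, the first base of Nqo1 (107403206) and that of Slc7a11 (50443614) fall inside these windows. In Gclm the core lies on the opposite strand, with its first base at position -134.
Gclm: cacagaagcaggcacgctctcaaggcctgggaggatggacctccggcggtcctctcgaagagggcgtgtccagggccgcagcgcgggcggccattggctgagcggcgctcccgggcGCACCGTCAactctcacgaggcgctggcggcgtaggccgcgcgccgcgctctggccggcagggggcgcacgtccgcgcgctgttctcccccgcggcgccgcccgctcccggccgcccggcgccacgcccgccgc
Nqo1: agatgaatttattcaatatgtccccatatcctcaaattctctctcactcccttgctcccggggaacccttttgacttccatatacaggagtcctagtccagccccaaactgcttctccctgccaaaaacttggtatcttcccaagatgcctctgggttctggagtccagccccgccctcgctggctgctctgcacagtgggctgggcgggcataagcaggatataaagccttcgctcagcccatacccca
Slc7a11: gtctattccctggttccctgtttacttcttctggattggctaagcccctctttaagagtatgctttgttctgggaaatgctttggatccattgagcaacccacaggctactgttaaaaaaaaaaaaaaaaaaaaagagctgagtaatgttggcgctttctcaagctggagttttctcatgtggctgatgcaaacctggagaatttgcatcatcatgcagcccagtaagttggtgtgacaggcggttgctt

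The 3 sequences differ in base composition. G and C made up 78.4% of the Gclm sequence, with 41 CpG, against 53.2% and 5 CpG in Nqo1 and 43.2% and 2 CpG in Slc7a11. The core match of Txnrd1 lies on the opposite strand, at position -92 of another annotated start (chr10:82859104-82859132). It and the AP-1 matches of Srxn1 (chr2:152105412-152105438 and chr2:152105469-152105495) are shown with 10 bases on each side and the match in capitals. A match describes these letters and not binding, and the absence of one says only that the letters are not in this window.
Txnrd1: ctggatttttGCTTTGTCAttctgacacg
Srxn1, first AP-1 match: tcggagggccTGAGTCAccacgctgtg
Srxn1, second AP-1 match: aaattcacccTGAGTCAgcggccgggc

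Of 12 genes that control NRF2 or act with it, 4 were higher and 3 lower (58.3%, against 24.2% of all genes tested) and 5 did not pass. Nfe2l2, which encodes NRF2 itself, was at 33.1, 41.8, 45.0 and 41.3 CPM in DMSO mice 480 to 483 and at 120, 66.6 and 83.2 CPM in ABT-263 mice 476 to 478. Every ABT-263 mouse lay above the DMSO mice. The mean rose from 40.3 ± 5.08 (SD, n = 4) to 89.95 ± 27.3 CPM (SD, n = 3), with a log2 fold change of 1.16 (SE 0.21, edgeR adjusted p = 0.0103). Bach1, the repressor that competes for the same elements, was at 20.1, 15.8, 20.3 and 19.0 CPM with DMSO and at 43.7, 27.3 and 35.5 CPM with ABT-263. It rose as well, with a log2 fold change of 0.92 (SE 0.18, edgeR adjusted p = 0.0131). The activator and the repressor both kept their calls with each mouse left out. Nfe2l2 RNA does not measure the NRF2 protein, whose amount is set mainly by degradation.

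Keap1, the inhibitor of NRF2, was at 123, 123, 143 and 132 CPM with DMSO and at 106, 96.9 and 100 CPM with ABT-263. The groups did not overlap, but the log2 fold change of -0.36 (SE 0.12) did not pass (edgeR adjusted p = 0.0562). The ubiquitin ligase subunits had opposite directions, with Cul3 higher (0.56, edgeR adjusted p = 0.0333) and Rbx1 lower (-0.50, edgeR adjusted p = 0.0322). Of the small MAF partners, Maff was higher (1.21, edgeR adjusted p = 0.0373), Mafg was lower (-0.46, edgeR adjusted p = 0.0458) and Mafk did not pass (0.61, edgeR adjusted p = 0.0625). Bach2, a relative of Bach1 known from lymphocytes, was lower (-1.77, edgeR adjusted p = 0.0491). The calls of Cul3, Rbx1, Maff and Mafg were each lost in 5 and that of Bach2 in 6 of the 7 fits that left out a mouse, with adjusted p-values up to 0.0987, 0.107, 0.116, 0.146 and 0.147. The related factors Nfe2l1 (-0.28, edgeR adjusted p = 0.449) and Nfe2l3 (0.62, edgeR adjusted p = 0.111) and the autophagy adaptor Sqstm1 (-0.17, edgeR adjusted p = 0.555), which binds KEAP1, did not pass.

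**Figure D4:**
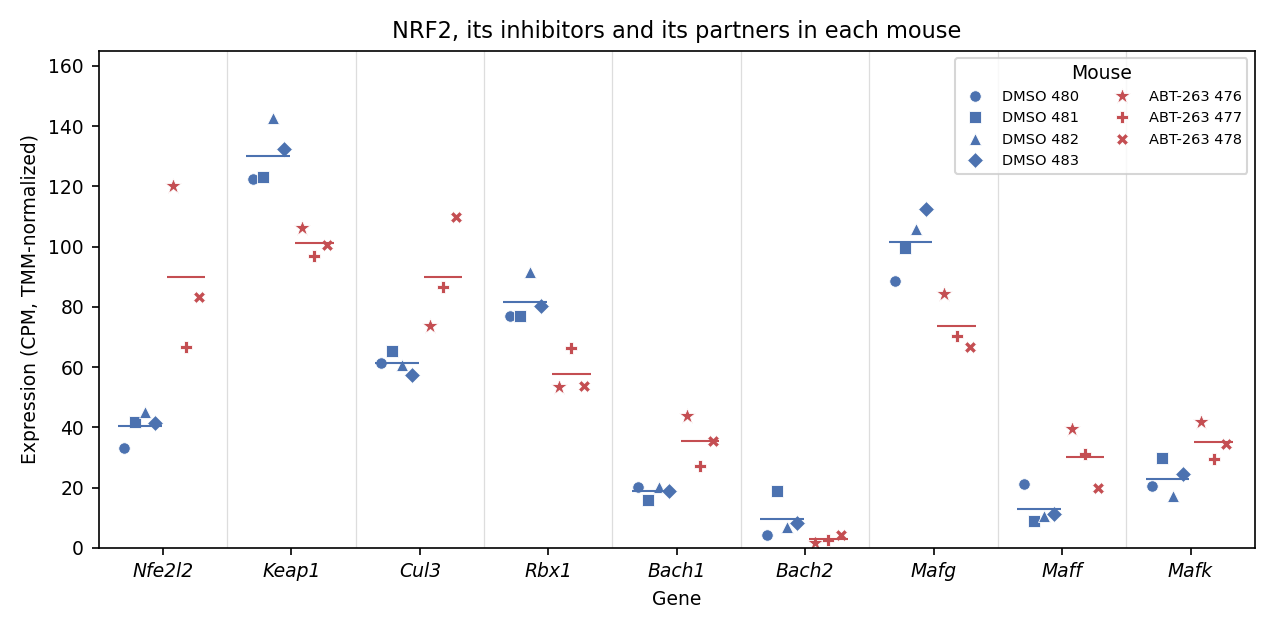
Each point is 1 mouse, and the vertical axis gives the level in CPM of the genes for NRF2, its inhibitors and its partners, with lines at the group means. The ABT-263 mice lie above the DMSO mice for Nfe2l2 (66.6 to 120 against 33.1 to 45.0 CPM), Bach1 and Cul3. They lie below them for Keap1, Rbx1, Bach2 and Mafg, and the groups overlap for Maff and Mafk. Among all genes tested, 37.1% had groups that did not overlap.

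Further genes of the same pathways were taken from 10 lists of 144 genes, of which 142 were matched and 137 tested. Of these, 19 were higher and 21 lower, or 29.2% against 24.2% of all genes tested, and their median log2 fold change was 0.11. Calls were thus about as frequent as among all genes and went in both directions. With a mouse left out, the higher genes numbered 11 without DMSO mouse 481, 6 without DMSO mouse 482, and 9 without DMSO mouse 483, ABT-263 mouse 476 or ABT-263 mouse 478. The lower genes numbered 13 without DMSO mouse 481 or ABT-263 mouse 477, 8 without DMSO mouse 482, and 7 without DMSO mouse 483, ABT-263 mouse 476 or ABT-263 mouse 478. Calls that were kept with each mouse left out in turn were found for 12 of the 40 genes. These were Nfe2l2, Bach1, Prdx4, Blvra, Aldh3a2 and Xdh among the higher genes and Gpx4, Glrx5, Gstk1, Txn2, Sod1 and Pgls among the lower genes. The sign of all 40 was the same in every setting. These genes were picked by their call in the same counts, so a kept sign or call is no independent support. Of the genes named from these lists, Rbx1, Bach2, Mafg, Maff, Gss, Prdx1, Prdx2, Tfrc and Ncf4 lost their call with all genes that had any count in the test, and Bach2, Mafg, Gstt1, Prdx1, Tfrc and Ncf4 under limma. DESeq2's size factors ended the calls of Mafg, Prdx1 and Tfrc, removal of length and GC trends those of Cul3, Mafg, Txnip and Duoxa1, restriction to protein-coding genes those of Gstt1, Txnip and Duoxa1, and thinning those of Tfrc and Duoxa1.

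**Figure D5:**
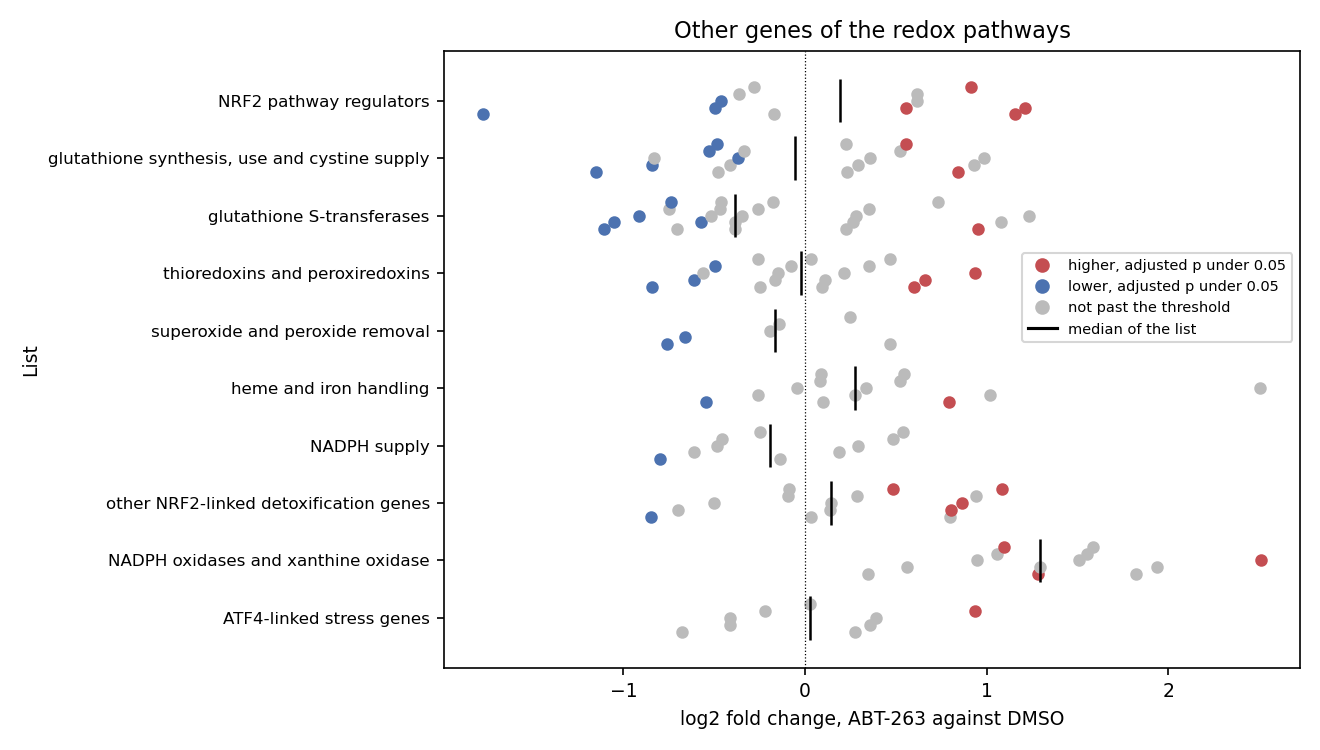
Each point is 1 gene of 10 lists, the horizontal axis gives its log2 fold change after ABT-263 (3 mice) against DMSO (4 mice), colours mark genes past the threshold, and the black bars give the list medians. Higher and lower genes occur together in most lists, and all 13 genes of the NADPH oxidase list lie above 0.

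Glutathione use moved in both directions. Of 18 genes for glutathione synthesis, use and cystine supply, 2 were higher and 5 lower (38.9% called, median -0.06). Gpx4, the peroxidase that reduces lipid hydroperoxides and guards against ferroptosis, fell from 142 ± 15.7 (SD, n = 4) to 78.9 ± 5.05 CPM (SD, n = 3), which is a log2 fold change of -0.84 (SE 0.13, edgeR adjusted p = 0.00783). Its copy Gpx4-ps2 held 79.2% to 83.1% of the reads of the 2 genes together, and the sum had a log2 fold change of -1.04 (edgeR adjusted p = 0.00848). Glrx5, a mitochondrial glutaredoxin of iron-sulfur cluster assembly, fell from 314 ± 26.0 to 141 ± 30.6 CPM (-1.15, SE 0.18, edgeR adjusted p = 0.00747). Gss, which completes glutathione synthesis, was lower (-0.53, edgeR adjusted p = 0.0362). The endoplasmic reticulum peroxidases Gpx7 (0.84, edgeR adjusted p = 0.0196) and Gpx8 (0.55, edgeR adjusted p = 0.0331) were higher. The calls of Gss, Gpx7 and Gpx8 were lost in 5, 3 and 6 of the 7 fits that left out a mouse, with adjusted p-values up to 0.121, 0.0581 and 0.101. The abundant peroxidases Gpx1 (0.23, edgeR adjusted p = 0.586) and Gpx3 (0.23, edgeR adjusted p = 0.572) did not pass.

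Glutathione S-transferases, which join glutathione to electrophiles, had 1 gene higher and 5 lower of 23 tested (26.1% called, close to the 24.2% of all genes, median -0.38). Gstk1, found in mitochondria and peroxisomes, fell from 45.7 ± 4.23 (SD, n = 4) to 22.03 ± 0.836 CPM (SD, n = 3), which is a log2 fold change of -1.05 (SE 0.12, edgeR adjusted p = 0.00578). Gstm1, a transferase of the cytosol, was lower (-0.74, edgeR adjusted p = 0.0275) and Gstt1 was higher (0.95, edgeR adjusted p = 0.0457). The calls of Gstm1 and Gstt1 were lost in 4 and 6 of the 7 fits that left out a mouse, with adjusted p-values up to 0.0787 and 0.143. Genes of this family resemble each other in sequence, and uniquely aligned reads may be divided unevenly among them.

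Thioredoxins and peroxiredoxins had 3 genes higher and 3 lower of 18 (33.3% called, median -0.02). Prdx4, the peroxiredoxin of the endoplasmic reticulum, rose from 20.3 ± 2.29 (SD, n = 4) to 38.8 ± 3.09 CPM (SD, n = 3), which is a log2 fold change of 0.93 (SE 0.13, edgeR adjusted p = 0.00673). The mitochondrial thioredoxin Txn2 fell from 353 ± 34.0 to 197 ± 13.9 CPM (-0.84, SE 0.14, edgeR adjusted p = 0.00916). Among the cytosolic members, Txn1 did not pass (0.10, edgeR adjusted p = 0.806), Prdx2 was lower (-0.61, edgeR adjusted p = 0.0314) and Prdx1 was just past the threshold (-0.50, edgeR adjusted p = 0.0499965). Txnip, the inhibitor of thioredoxin, was higher (0.60, edgeR adjusted p = 0.0434), as was the stress-induced Sesn2 (0.66, edgeR adjusted p = 0.0285). The calls of Prdx1, Prdx2, Txnip and Sesn2 were lost in 6, 4, 5 and 5 of the 7 fits that left out a mouse, with adjusted p-values up to 0.154, 0.105, 0.126 and 0.0862. With 2 near-identical pseudogenes added, Prdx1 did not pass (-0.43, edgeR adjusted p = 0.0804).

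Among genes for removal of superoxide and peroxide counted elsewhere, Sod3, Gpx7, Gpx8 and Prdx4 were higher and Gpx4, Prdx1 and Prdx2 lower, as given above. The 6 further genes for this had 0 higher and 2 lower by edgeR (33.3% called, against 24.2% of all genes tested). At an unadjusted p-value under 0.05, 0 of the 6 were higher (20.6% of all genes), and by DESeq2 0 were (13.6% of all genes). Beside Sod1, the lower gene was Park7 (-0.66, edgeR adjusted p = 0.0159), whose protein DJ-1 responds to oxidation, and its call was lost without DMSO mouse 482, ABT-263 mouse 476 or ABT-263 mouse 478 (adjusted p up to 0.0552). Catalase (Cat) did not pass (0.47, edgeR adjusted p = 0.144). Of 13 genes of heme and iron handling, 1 was higher and 1 lower (15.4% called). Blvra, which reduces the biliverdin made by heme oxygenase, rose from 17.98 ± 1.28 (SD, n = 4) to 31.1 ± 3.20 CPM (SD, n = 3), which is a log2 fold change of 0.79 (SE 0.13, edgeR adjusted p = 0.00828). The transferrin receptor Tfrc was lower (-0.55, edgeR adjusted p = 0.0455), a call lost in 6 of the 7 fits that left out a mouse (adjusted p up to 0.139). Of 10 genes that supply NADPH, 0 were higher by edgeR, against 12.4% of all genes tested. At an unadjusted p-value under 0.05, 1 was higher (20.6% of all genes), and by DESeq2 0 were (13.6% of all genes). By edgeR 1 was lower (10% called, against 24.2% of all genes tested). This was Pgls, the lactonase of the pentose phosphate pathway, which fell from 201 ± 21.6 to 116 ± 18.2 CPM (-0.80, SE 0.16, edgeR adjusted p = 0.0134).

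Among 15 other detoxification genes linked to NRF2, 4 were higher and 1 lower (33.3% called). Aldh3a2, which oxidizes fatty aldehydes, rose from 10.2 ± 1.61 (SD, n = 4) to 21.7 ± 3.55 CPM (SD, n = 3), which is a log2 fold change of 1.08 (SE 0.18, edgeR adjusted p = 0.00887). Ugdh, which makes UDP-glucuronate, was higher (0.80, edgeR adjusted p = 0.0216), and Aldh3a1, an aldehyde dehydrogenase of epithelia, was lower (-0.85, edgeR adjusted p = 0.0343). The calls of Ugdh and Aldh3a1 were lost in 3 and 5 of the 7 fits that left out a mouse, with adjusted p-values up to 0.0704 and 0.0833. Of 9 stress genes linked to ATF4, a factor that also drives Slc7a11, 1 was higher and 0 lower by edgeR. This is 11.1% called, against 24.2% of all genes tested. At an unadjusted p-value under 0.05, 2 were lower (19.5% of all genes), and by DESeq2 1 was lower (12.3% of all genes). The 2 were Atf4 itself (-0.41, edgeR adjusted p = 0.0950) and Phgdh (-0.68, edgeR adjusted p = 0.0570), which did not pass. The higher gene was Ddit4, an inhibitor of mTORC1 (0.94, edgeR adjusted p = 0.0332), and its call was lost in 4 of the 7 fits that left out a mouse (adjusted p up to 0.0861).

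The sources of superoxide were read beside its removal. Of 13 genes for NADPH oxidases and xanthine oxidase, 3 were higher and 0 lower by edgeR (23.1% called, close to the 24.2% of all genes), and the median log2 fold change was 1.29. At an unadjusted p-value under 0.05 there were 9 higher and 0 lower (20.6% and 19.5% of all genes), and by DESeq2 there were 7 higher and 0 lower (13.6% and 12.3% of all genes). Xdh, which encodes xanthine oxidoreductase, rose from 57.9 ± 16.3 (SD, n = 4) to 141 ± 41.6 CPM (SD, n = 3), which is a log2 fold change of 1.28 (SE 0.26, edgeR adjusted p = 0.0144). Ncf4, a cytosolic subunit of the phagocyte oxidase, was at 4.71, 2.66, 3.85 and 5.75 CPM with DMSO and at 53.2, 9.12 and 10.3 CPM with ABT-263. It was called higher (2.51, SE 0.64, edgeR adjusted p = 0.0305), a call that was lost without any one of the 4 DMSO mice (adjusted p up to 0.0759). The call was also lost under DESeq2, so Ncf4 is not among its 7 higher genes, as well as under limma and with all genes that had any count in the test. Duoxa1, a maturation factor of the epithelial dual oxidases, was higher (1.09, edgeR adjusted p = 0.0431), a call lost in 5 of the 7 fits that left out a mouse (adjusted p up to 0.119). Cybb, the membrane subunit of the phagocyte oxidase, reached 132 CPM in mouse 476, while mice 477 and 478 (29.6 and 34.0 CPM) lay within the DMSO range of 15.6 to 35.01 CPM, and it did not pass (1.29, edgeR adjusted p = 0.125). Several of these genes are expressed by neutrophils and macrophages, whose marker sums of 5097 to 8318 CPM and 675 to 2313 CPM after ABT-263 exceeded those after DMSO, and the part of these cells was not tested.

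The genes whose levels over the 7 mice were most like those of the 4 higher genes were sought by Pearson's r of log2 CPM, among 10208 genes with a mean of at least 10 CPM. The values describe 7 libraries that share 2 treatments, and no test was made. For Gclm they were Sf3b1, Strap and Psmd14 (r of 0.997, 0.989 and 0.988). For Slc7a11 they were P4hb, Fgfbp1 and Tie1 (0.995, 0.990 and 0.989). Nqo1 was most like Boc, Ino80 and Pnpla8 (0.990, 0.983 and 0.982), and Sod3 was most like Tnip2, Eif1a and Ube2j1 (0.994, 0.994 and 0.992). None of these 12 genes is a member of the lists above.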

How the data were processed

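RNA was sequenced from dorsal skin of 7 mice, 1 library each. The authors aligned reads to mm10 with STAR 2.7.9a and counted uniquely aligned, same-strand proper pairs of non-mitochondrial Ensembl genes with featureCounts (Subread 1.6.2). The labels and the paper name different RNA extraction kits. The authors deposited the counts without normalization, and a second deposited table holds variance-stabilized values on a log2 scale, made by the authors with DESeq2 1.23.10. No column was left unused (0).

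Gene names, positions and exon lengths came from GENCODE M21 (GRCm38), another annotation release than the authors', which held 55190 of 55450 identifiers. Nnt and Ddit3 matched more than 1 identifier and were left out. In R 4.3.3, counts were tested with edgeR 4.0.16 (TMM, filterByExpr, quasi-likelihood F-test, robust, two-sided), Benjamini-Hochberg adjusted over 17959 genes. The SE is the log2 fold change divided by the square root of F. The script was tested on simulated data. Ratios of gene pairs used counts plus 0.5 and exact permutation tests over 35 assignments of mice, two-sided. 

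The 10 genes, the pathway and marker lists and the tests were chosen with earlier results of these data known. Named genes are the 10, the main regulators, pair partners, common antioxidant enzymes, up to 2 genes of smallest p per direction and list, and the 3 genes most like each member. Cul3, Bach2, Nfe2l3, Gss, Duoxa1, Cybb, Atf4 and Phgdh are named beside this rule, with their values known. Results were recomputed with DESeq2 1.42.0, its size factors, every gene with a count, only genes of 10 or more counts in each library, only protein-coding genes, removal of length and GC trends (mgcv 1.9.3), thinning to the smallest library, limma 3.58.1 on the log2 values, a pseudocount of 5 for the ratios and leaving out each mouse. Adding near-identical pseudogenes to their genes was chosen after seeing the data.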

Additional observations from a re-analysis of the deposited data

Results flagged for a closer look

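The log2 ratio of Sod3 to Sod1 counts in DMSO mouse 481 lay far from the other DMSO mice, at -3.33 against -2.50, -2.38 and -2.33. Its gap to the nearest mouse was 0.832 of the whole range, above Dixon's critical value for 4 samples. Of 16 measures examined in the DMSO mice, 1 was flagged in this way, and chance flags about 5% of groups, or 0.8 of 16. With this mouse left out of the comparison, Sod3 itself kept its call.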

How the results depend on the processing

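The log2 fold changes of 8 of the 10 genes were positive in all 16 alternative settings. The exceptions came without ABT-263 mouse 476, where Gsr was at -0.0047 and Sod2 at -0.33 (highest without a mouse 1.10 and 0.56). Over the fits that left out 1 mouse, the number of higher genes among the 10 lay between 1 and 4, that of the other pathway genes between 6 and 21 higher and between 7 and 19 lower, and that of all genes called between 1735 and 4169, against 4342 with all mice. With all genes that had any count in the test, 16 other pathway genes were higher and 10 lower, and with protein-coding genes only 14 were higher and 24 lower, against 19 and 21. The cause of these shifts was not tested, and the fits that left out a mouse also had fewer mice. Of 160 values of the 10 genes under these settings, 17 changed the call. No paired analysis was possible because the groups share no replicate number. With 4 mice against 3, differences near the spread between mice could not be told from it. In its lowest library Slc7a11 had 44 counts (DMSO mouse 481) and Gclc had 101 (DMSO mouse 480). The part of these low counts in the precision was not tested. The p-values measure the spread between these mice only.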
